A study of Mus musculus with 24 samples.

Results

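The experiment described here is the removal of BRD2 in day 3 embryoid bodies of mouse V6.5 embryonic stem cells, measured by sequencing of total RNA. Embryoid bodies (EB) are aggregates that stem cells form when the factor LIF is withdrawn, and in which they begin to differentiate. The cells carry a BRD2 degron, a protein tag through which a plant hormone, auxin, triggers destruction of the tagged protein. All libraries used here come from this line, and all cultures received doxycycline (Dox) at 1 µg/ml for 18 h. The control group (Dox) received nothing further, and the treated group (IAA) was given an auxin, indole-3-acetic acid, at 500 µM for 24 h besides. There were 3 libraries in each group, so 6 of the 24 libraries of the series, and 21304 of the 35742 listed genes had a mean of at least 1 in them and were tested. The labels do not say on which day of EB culture IAA was added, whether the line was a single clone, or whether replicate libraries came from different cultures. All p-values thus refer only to the spread among these libraries, which may be technical.

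The other 18 libraries are the same line as mES cells in 2i medium with LIF and as EB at day 2 and day 4 (EBd2 and EBd4), with 3 Dox and 3 IAA libraries at each stage. They were used only where the day 3 effect was set against the other stages and for the course of control cells from day 2 to day 4. The day 3 libraries held 7819522 to 9416260 reads. Mitochondrially encoded genes took 1.25% to 1.26% of the reads in the IAA libraries and 1.14% to 1.19% in the Dox libraries. Libraries of the same group differed beyond the noise of sampling reads. The chi-square statistic over its degrees of freedom was 1.245 to 1.707 for pairs of Dox libraries and 1.521 to 3.096 for pairs of IAA libraries, with IAA 2 and IAA 3 farthest apart. No library was therefore counted as a copy of another.

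BRD2 belongs to the BET family of proteins, whose bromodomains bind acetylated histones at active promoters and enhancers and which help RNA polymerase II to start and to elongate transcripts. In the early embryo, and in EB that copy part of its development, the choice between pluripotency and the germ layers is set by secreted signals. Nodal, a ligand of the TGF-beta family, acts through its co-receptor Tdgf1 (Cripto), activin receptors and SMAD2 and SMAD3 with the DNA-binding partner FOXH1. Its targets include its own antagonists, Lefty1 and Lefty2, which limit how far and how long the signal lasts.

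Values below are read counts that were normalised for library depth, given per library in the order of replicates 1 to 3. Changes are log2 fold changes of IAA over Dox ± SE, on the scale of log2 of the value plus 1, which understates changes of genes with low values. Genes are said to have risen or fallen where the adjusted p (limma, Benjamini-Hochberg over all genes tested) was below 0.05. Gene positions are on mm10, from the GENCODE M21 annotation.

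The targeted gene was examined first. Brd2 RNA (chromosome 17, 34112023 to 34122634) was counted at 4128, 4551 and 4582 in the Dox libraries and at 6033, 5643 and 5619 in the IAA libraries. It rose by log2 0.38 ± 0.04 (adjusted p 2.14e-07), and the groups did not overlap. Its RNA cannot show loss of the protein, since the degron acts on the protein. Brd3, a related gene of the same family, rose slightly, by log2 0.15 ± 0.04 (adjusted p 0.0334). That call was lost with DESeq2 on the recovered reads and when any of Dox 1, Dox 2, Dox 3, IAA 1 or IAA 2 was left out.

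The label was checked against single marker genes. Those of pluripotency and of the early epiblast were well expressed, while T and Sox17, defining genes of the primitive streak and endoderm, were low. Pou5f1, the central pluripotency factor, stood at 6867, 6816 and 7112 in the Dox libraries and at 7226, 6626 and 7243 in the IAA libraries. Dnmt3b, a DNA methyltransferase of the formative epiblast, was at 25709.7, 26996 and 26080.2 with Dox and 26504, 24637 and 25693 with IAA. Neither gene passed the test (log2 0.02 ± 0.04 and -0.04 ± 0.03). T, the defining gene of the primitive streak, was at only 14.2, 6.39 and 12.7 with Dox and 7.74, 8.70 and 14.9 with IAA, and Sox17, an endoderm factor, at 4.75, 7.45 and 3.18 and 3.87, 1.24 and 4.25. Ttr of the primitive endoderm and the fibroblast genes Lum, Postn and Fap were at 0 in all 6 libraries. These low genes do not stand for their whole lists. Summed levels with Dox were 7819 to 8758 for the definitive endoderm list and 4401 to 4581 for the primitive endoderm list. They were 376 to 459.5 for the streak list, with Wnt8a at 123, 135 and 136, and 329 to 409.6 for the fibroblast list.

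Of the 21304 genes, 899 rose with IAA, which is 4.22%, and 1346 fell, which is 6.32%. Counts of list members that rose or fell, given below, are to be read against these shares. The shares include genes with low counts, and among genes with a mean of at least 50 they were higher. By class of control course (last comparison below), 7.64% to 8.52% of such genes rose and 8.41% to 17.3% fell. For lists of genes with high counts, those higher shares are the nearer measure. Large changes were mostly falls. At least 1.5-fold changes numbered 89 rises and 550 falls, and at least 2-fold changes 26 rises and 264 falls. The median log2 change over all genes tested was -0.01. In 2616 genes (12.3%) all 3 IAA libraries were above all 3 Dox libraries, and in 3122 genes (14.7%) all were below. In the authors' deposited table, 1877 of 14953 genes with an adjusted p were below 0.05, 777 higher and 1100 lower, and 1791 of them were also called here, all in the same direction. The number of calls depended on single libraries: there were 475 rises without Dox 1, 441 without Dox 2, 561 without Dox 3 and 440 without IAA 1, and 799 falls without Dox 1, 761 without Dox 2 and 881 without IAA 1. DESeq2 on the recovered reads called 549 rises and 734 falls.

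**Figure D1:**
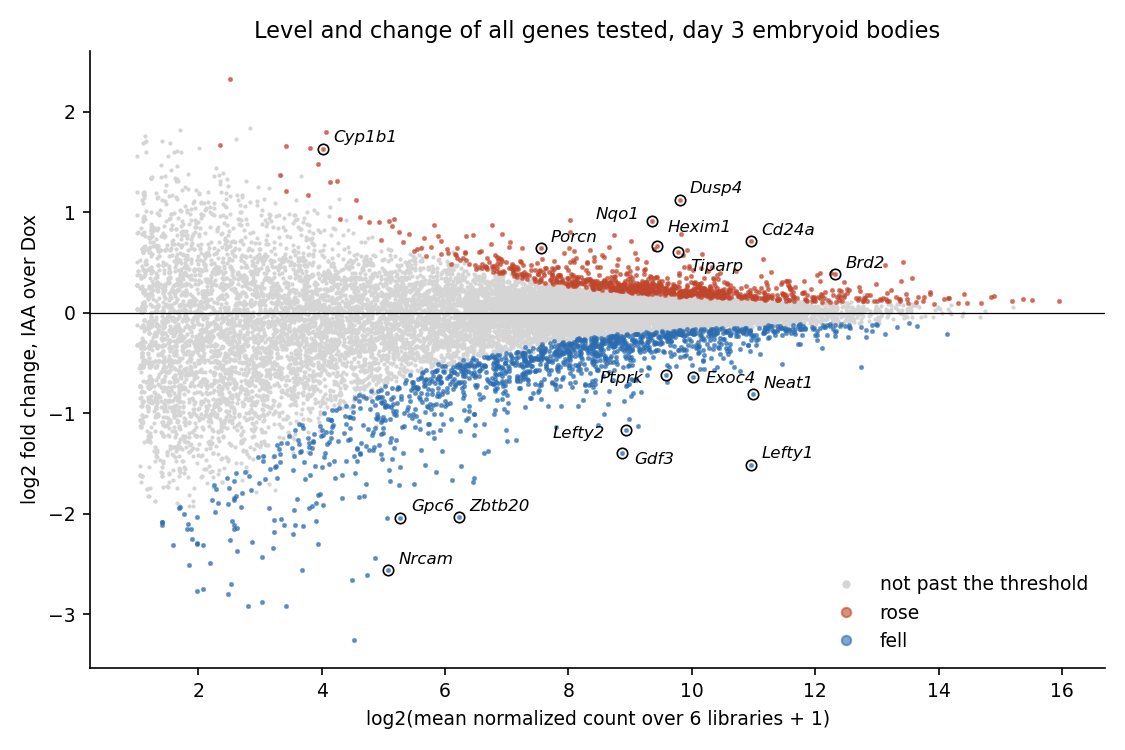
Log2 fold change of IAA over Dox (vertical axis) against the log2 of the mean normalised count of the 6 day 3 libraries plus 1 (horizontal axis), with 1 point per tested gene, red for genes that rose, blue for genes that fell and grey for the rest, and circles around named genes. The 264 falls of at least 2-fold outnumber the 26 rises of that size, and Lefty1 and Dusp4 stand apart among genes with high counts.

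Several genes of the Nodal pathway that encode its ligands, its co-receptor and its targets fell, while its receptors and SMADs mostly did not pass the test. Of 9 genes for ligands, co-receptors and processing, 3 fell and none rose, with a median log2 change of -0.54. Of 9 measured targets and antagonists, 7 fell and none rose, with a median of -0.51. Of 7 measured receptors and SMADs, 1 rose and none fell, with a median of 0.06. Over all genes tested 6.32% fell and 4.22% rose. Tdgf1 is a member of both the ligand and the target list and is counted in each, so these lists are not separate. In bulk RNA, fewer cells that express a gene and less RNA per cell cannot be told apart.

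Among the ligands, Nodal (chromosome 10, 61417972 to 61425338) was counted at 503, 494 and 538 with Dox and at 308, 291 and 297 with IAA, a change of log2 -0.77 ± 0.07 (adjusted p 5.04e-08). Every IAA library was well below every Dox library. Gdf3 (chromosome 6, 122605403 to 122610087), a related ligand that acts through the same receptors, went from 644, 717 and 657 to 234, 246 and 288 (log2 -1.40 ± 0.08, adjusted p 5.77e-12). The co-receptor Tdgf1 (chromosome 9, 110939603 to 110946158) went from 8260.0, 7964 and 8119 to 5466, 5387 and 5927 (log2 -0.54 ± 0.04, adjusted p 4.11e-11). All 3 genes kept their calls in every alternative analysis and with each library left out.

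Transducers of the signal did not follow. Smad2 stood at 771, 786 and 693 with Dox and 760.0, 876 and 786 with IAA (log2 0.11 ± 0.06, adjusted p 0.35). Foxh1 stood at 1211, 1175 and 1196 and 1084, 1076 and 1144 (log2 -0.12 ± 0.05, adjusted p 0.154). Neither passed the threshold, although the 3 Foxh1 values with IAA were all below those with Dox. The riser of this group was Smad4, the shared partner of the TGF-beta and BMP SMADs, by only log2 0.19 ± 0.05, and its call was lost without Dox 1 or without Dox 2.

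Lefty1 (chromosome 1, 180935022 to 180938400), a secreted antagonist of Nodal and one of its direct targets, went from 3276, 2724 and 2819.6 to 1106, 909.5 and 1083, log2 -1.51 ± 0.06 (adjusted p 6.19e-15). This was the smallest adjusted p of IAA against Dox at day 3 among the genes named here. Lefty2, its neighbour on the chromosome (chromosome 1, 180893108 to 180899103), went from 730.2, 643 and 645 to 320.0, 279.6 and 301 (log2 -1.16 ± 0.07, adjusted p 2.64e-11). In both targets the highest IAA library was below the lowest Dox library. Smad7, which encodes an inhibitory SMAD, fell from 376, 394 and 397 to 303, 229.9 and 311 (log2 -0.48 ± 0.09). Skil and Ski, which encode SMAD co-repressors, did not pass the threshold (log2 -0.08 ± 0.04 and 0.01 ± 0.05). Nanog changed by log2 -0.49 ± 0.08, a call that DESeq2 on the recovered reads did not make (adjusted p 0.0991).

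**Figure D2:**
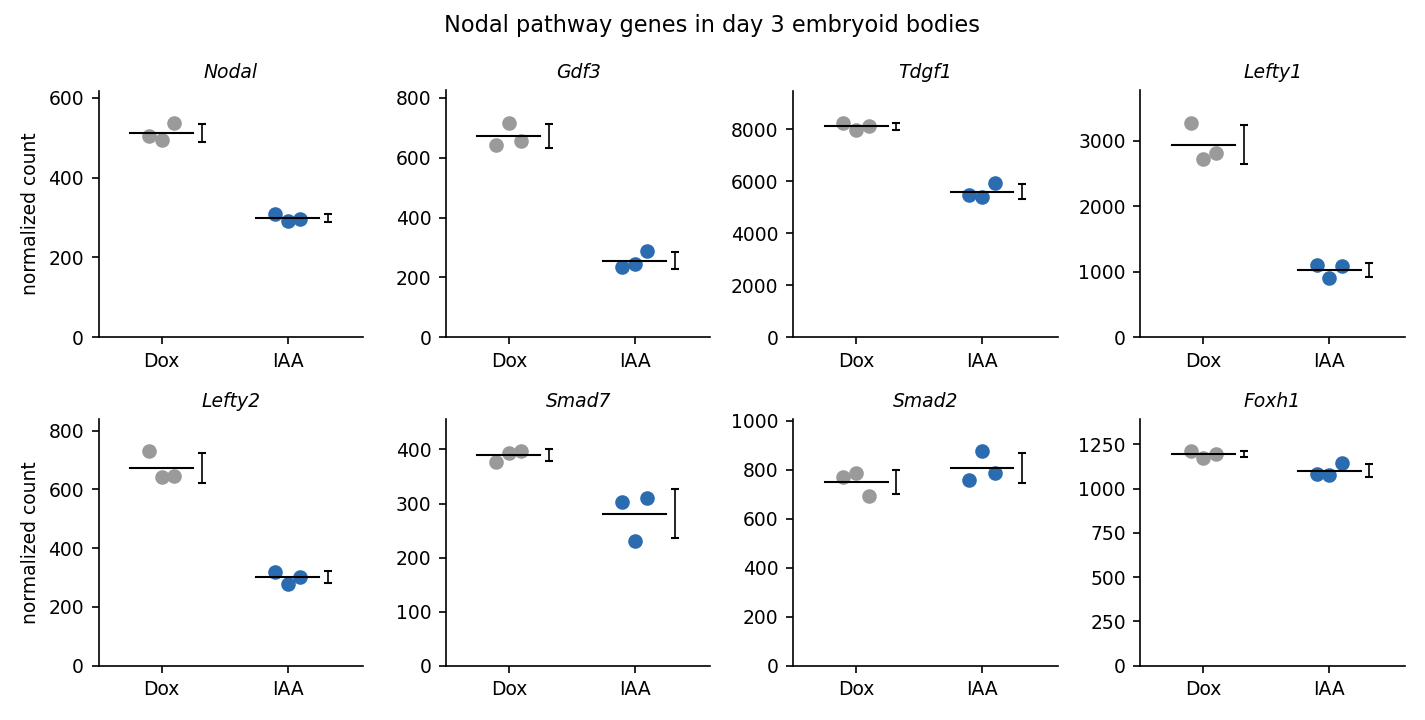
Normalised counts (vertical axes, linear and starting at 0) of 8 Nodal pathway genes in the 3 Dox (grey) and 3 IAA (blue) libraries of day 3. Points are libraries, horizontal lines means and brackets ± SD. In Nodal, Gdf3, Tdgf1, Lefty1 and Lefty2 all IAA points lie far below all Dox points, in Smad7 they lie below, in Foxh1 they lie slightly below, and in Smad2 the groups overlap.

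Markers of the primitive streak, a cell state that forms under Nodal, are listed beside this result. Of the 16 listed genes 13 were measured and 3 fell, with a median log2 change of -0.19. Leaving out any library but IAA 3 gave 1 fall, and the joint fit of all 24 libraries gave none. Their summed level was 376 to 459.5 with Dox and 267 to 382 with IAA, ranges that overlap. Wnt3a, Gsc and Mesp1 had a mean below 1. Of 16 measured mesoderm genes none passed the threshold, and their summed level was 184 to 220.3 with Dox and 197 to 203 with IAA. The part of such cells in the fall of Nodal targets was not tested.

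RefSeq promoter sequences on GRCm38.p6 were searched, on both strands of the 250 bases before the start, for the FOXH1 motif AATNCACA, a palindromic SMAD motif GTCTAGAC and others below. Sequences for 15812 genes were matched by symbol, and 732 of 971 listed genes were among them. The FOXH1 letters stood in 2.25% of all these promoters and the SMAD letters in 0.171%. None of 8 ligand and co-receptor promoters held the FOXH1 letters, and 1 of 4 target promoters did, that of Nanog. No sequence was found for Gdf3, Lefty1 or Lefty2, and no site outside the 250 bases was searched. The search therefore cannot show whether these genes have such sites. Shown here are the promoters of Nodal (chr10:61417722-61417971, plus strand) and Tdgf1 (chr9:110946159-110946408, minus strand), the pathway genes with a sequence that fell in every analysis. Neither holds the FOXH1 or the SMAD letters, so no base is in capitals.
Nodal: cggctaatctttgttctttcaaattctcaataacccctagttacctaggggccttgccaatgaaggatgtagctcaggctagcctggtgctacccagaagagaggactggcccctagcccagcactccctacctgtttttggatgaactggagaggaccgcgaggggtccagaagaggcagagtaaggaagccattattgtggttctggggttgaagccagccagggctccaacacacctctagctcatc
Tdgf1: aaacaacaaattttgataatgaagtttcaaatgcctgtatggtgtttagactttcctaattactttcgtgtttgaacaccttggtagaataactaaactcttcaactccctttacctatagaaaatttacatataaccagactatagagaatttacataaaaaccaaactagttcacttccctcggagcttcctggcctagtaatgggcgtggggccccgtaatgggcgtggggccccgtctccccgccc

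The share of genes that fell with IAA was higher among genes that span a long stretch of the genome. Span is the distance from the start to the end of a gene, introns included. Among protein-coding genes with a mean of at least 50, the share that fell was 6.36% of 2358 genes under 10 kb, 4.98% of 3636 genes of 10 to 30 kb and 6.99% of 3263 genes of 30 to 100 kb. It was 26.9% of 1149 genes of 100 to 300 kb and 76.0% of 192 genes over 300 kb. Rises went the other way: 209, 337, 251, 30 and 1 genes of these classes rose. The median log2 change was 0.02, 0.04, 0.02, -0.12 and -0.53.

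In single libraries the same order was seen. Taken as the deviation from each gene's mean over the Dox libraries, the median of genes over 300 kb was -0.53, -0.63 and -0.43 in the 3 IAA libraries, against 0.01, 0.01 and -0.01 in the Dox libraries. Protein-coding genes over 300 kb took 0.882%, 0.869% and 0.858% of the reads with Dox and 0.644%, 0.615% and 0.670% with IAA, which do not overlap. Of the 192 genes, 180 (93.8%) had a log2 change below 0. With the minimum mean at 1 in place of 50 there were 466 genes of this length, of which 239 (51.3%) fell and 1 rose. Falls among them ranged from 161 with DESeq2 to 254 without IAA 3. Genes of 100 to 300 kb were less steady: at a minimum mean of 1, 390 of 1708 (22.8%) fell, against 226 without Dox 1, 235 without Dox 2, 255 without IAA 1 and 217 with DESeq2.

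Exonic length did not give the same order. Among genes with a span under 100 kb, 9.34% of those with under 2 kb of exons fell, and 6.02%, 5.17% and 5.88% of those with 2 to 4 kb, 4 to 8 kb and over 8 kb. Among genes of 100 kb or more, between 31.4% and 45.5% fell in the same 4 exonic classes, the latter over 11 genes alone. Across 10598 genes the correlation of the log2 change with log10 span was -0.29 (Pearson) and -0.21 (Spearman). These genes share the 6 libraries and are not independent, so the values are a description.

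Seen from the genes called, 629 of the 1298 protein-coding genes that fell (48.5%) spanned at least 100 kb, against 2174 of the 15612 tested (13.9%). Of 245 protein-coding genes that fell at least 2-fold, 162 (66.1%) did. Of 856 that rose, 32 (3.74%) did. The median span was 94.3 kb for falls, 231 kb for falls of at least 2-fold, 19.8 kb for rises and 23.4 kb for all tested.

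**Figure D3:**
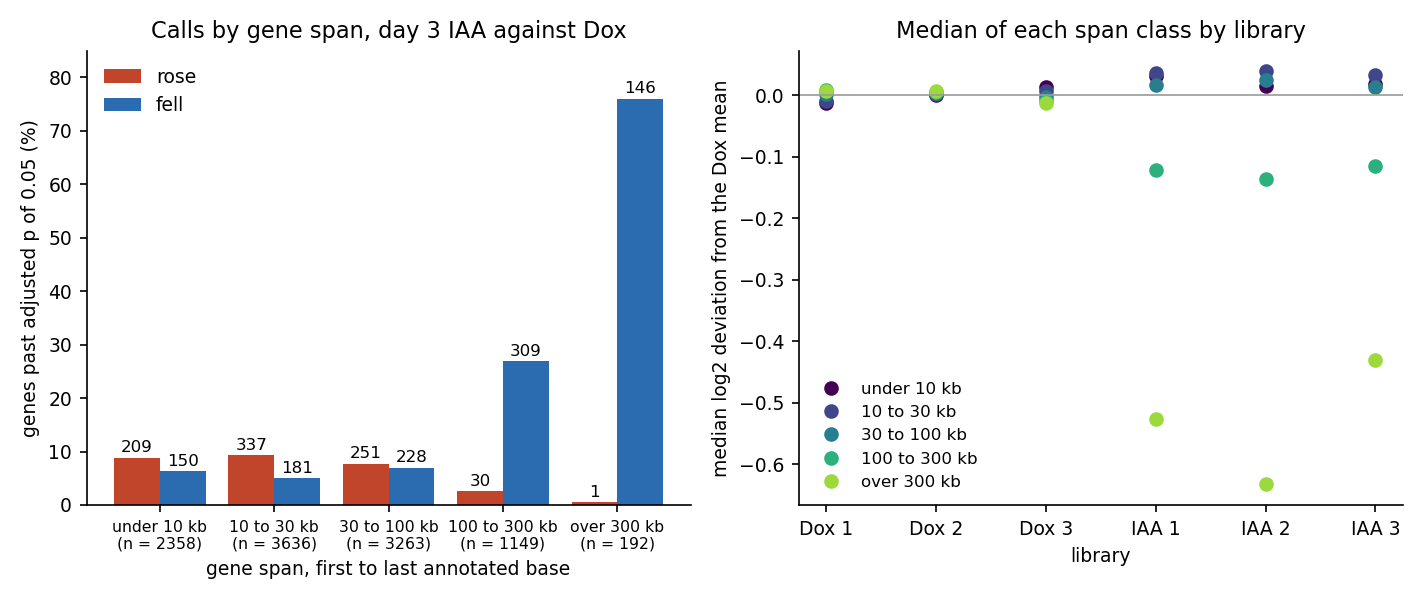
Left, share of protein-coding genes with a mean of at least 50 that rose (red) or fell (blue) with IAA at day 3, by class of genomic span, with the number of genes above each bar. Right, the median log2 deviation of each class from the Dox mean in each library. The share that fell reaches 76.0% over 300 kb, and in that class the 3 IAA libraries lie between -0.63 and -0.43.

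The largest falls by the naming rule were nearly all of such genes. Nrcam (chromosome 12, 44328885 to 44601964), a neuronal cell adhesion molecule, went from 51.1, 50.03 and 66.9 with Dox to 11.6, 3.73 and 13.8 with IAA (log2 -2.56 ± 0.33, adjusted p 5.20e-06). Gpc6 (chromosome 14, 116925315 to 117976544), a glypican that carries heparan sulphate at the cell surface, went from 64.1, 59.6 and 60.5 to 15.5, 12.4 and 14.9 (log2 -2.04 ± 0.23). Zbtb20 (chromosome 16, 42875881 to 43642602), a zinc finger repressor, went from 148, 112 and 97.6 to 31.0, 24.8 and 28.7 (log2 -2.03 ± 0.18). All 3 were far lower in every IAA library than in any Dox library, and all 3 calls held in every alternative.

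Fat3, an atypical cadherin, fell from 134, 123 and 141 to 41.3, 33.5 and 48.8 (log2 -1.68 ± 0.16), as did Dpp6, a potassium channel subunit gene (log2 -2.04 ± 0.27). The others of the 12 largest falls were Phactr1 (-1.72 ± 0.24), Ctnnd2 (-1.70 ± 0.25), the angiopoietin receptor gene Tek (-1.67 ± 0.28), Trim67 (-1.66 ± 0.17), Grip1 (-1.64 ± 0.17), Hmcn1 (-1.58 ± 0.20) and Nell2 (-1.56 ± 0.24). Among them, Trim67 has the shortest span, 41622 bases, and Gpc6 the longest, 1051230 bases. Among genes with higher counts, Exoc4, a subunit of the exocyst that tethers secretory vesicles, went from 1162, 1242 and 1372 to 764, 701 and 983 over a span of 724895 bases (log2 -0.64 ± 0.08). Ptprk, a receptor tyrosine phosphatase gene of 522578 bases, went from 925, 947 and 896 to 591, 552 and 668 (log2 -0.62 ± 0.07). In both genes the groups did not overlap.

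Not every long gene fell. The longest class, 10 genes over 1 Mb, had 5 falls and a median of -0.22, while 102 of 129 genes of 300 to 500 kb fell (median -0.52) and 39 of 53 genes of 500 kb to 1 Mb (median -0.60). Dlc1 was the sole riser over 300 kb (log2 0.25 ± 0.08, adjusted p 0.0326). Foxp1, a forkhead factor (log2 0.14), Rere (-0.02), Zfhx3 (-0.03) and Auts2 (-0.09) also span over 300 kb and did not pass the threshold. These 5 genes were chosen after their values were seen.

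Falls were also counted in lists of neuronal and axonal genes, several of which are long. Of 19 measured genes of neuronal adhesion and synapses, 8 fell and 1 rose, with a median log2 change of -1.33. Nrcam, Dpp6, Ctnnd2 and Cntn3 kept the call in every alternative, DESeq2 called 4 falls, and the rise was lost without Dox 3 or IAA 1. The summed level of the list was 946 to 977 with Dox and 761 to 845 with IAA. Of 42 axon guidance genes 8 fell and 2 rose (median -0.28), with no rise left without Dox 1 or IAA 1 and 1 left without Dox 2 or IAA 2. Slit3, which encodes a secreted guidance cue, fell from 180.5, 181 and 179 to 80.0, 68.3 and 74.3 (log2 -1.27 ± 0.12). Robo1, a receptor of the Slit cues, fell (log2 -0.70 ± 0.11), as did Sema5a (-0.98 ± 0.20) and the ephrin gene Efna5 (-0.71 ± 0.16). Of 10 glypicans and syndecans 2 fell, Gpc6 and Gpc3 (-0.50 ± 0.07), and the median was -0.07. Without being long, Tubb3, the neuronal tubulin gene, rose from 698, 776 and 770.4 to 1217, 1088 and 1039 (log2 0.57 ± 0.06). The 22 neuroectoderm markers together stood at 7254 to 7410.4 with Dox and at 7666 to 8057 with IAA, so they were not lower with IAA.

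Genes of under 300 kb among the falls with high counts had other roles. Neat1 (chromosome 19, 5824708 to 5845478), a nuclear RNA that builds paraspeckles, went from 2752, 2638 and 2389.8 to 1515, 1450.0 and 1478 (log2 -0.81 ± 0.05, adjusted p 1.27e-11). Psmb10, a subunit of the immunoproteasome, fell (log2 -0.62 ± 0.07). Oxct1, which encodes a mitochondrial enzyme of ketone body use and spans 128962 bases, fell (log2 -0.69 ± 0.06). The groups did not overlap in any of these 3 genes.

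Rises were fewer and smaller. The largest by the rule was Dusp4 (chromosome 8, 34807297 to 34819894), a phosphatase that switches off ERK kinases and is itself induced by ERK signalling. It went from 553, 543 and 569 to 1210.3, 1469 and 1004 (log2 1.13 ± 0.08, adjusted p 4.34e-10), and the 3 IAA libraries differed among themselves more than the Dox libraries did. Spry4, another feedback inhibitor of the same pathway, went from 361, 407 and 402 to 621, 555 and 759 (log2 0.71 ± 0.09, adjusted p 1.66e-06). Of 17 listed FGF and ERK targets, 4 rose and none fell, with a median log2 change of 0.14. Without Dox 2 there were 2 rises, and without IAA 3 there were also 3 falls. Of 11 FGF ligands and receptors none rose and 2 fell, Fgf8 (-1.34 ± 0.23) and Fgf15 (-0.74 ± 0.14), both of which lost the call in the joint fit of 24 libraries.

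Cd24a, a cell surface glycoprotein gene (chromosome 10, 43578284 to 43584265), was counted at 1530.4, 1410.4 and 1574 with Dox and 2457, 2499 and 2459 with IAA (log2 0.72 ± 0.05, adjusted p 2.64e-11). The IAA values lay close together and far above the Dox values. Nefh, a neurofilament gene, rose by log2 0.93 ± 0.12, Cited2, a transcriptional co-regulator, by 0.78 ± 0.08, Irx3, a homeobox gene, by 0.77 ± 0.14 and H1f0, a linker histone, by 0.63 ± 0.07. Porcn, which encodes the enzyme that lipidates Wnt proteins for secretion, rose from 147, 152 and 136 to 235, 227 and 221 (log2 0.65 ± 0.10, adjusted p 6.32e-05). Among 13 measured genes of Wnt ligands and secretion, Porcn was the rise and Wnt3 and Wnt8a were falls. Both falls were lost with DESeq2, in the joint fit and with any library but IAA 3 left out. Of 14 Wnt targets 1 rose, Rnf43, and that call was lost with DESeq2, in the joint fit and without Dox 2, IAA 1 or IAA 2. Of 14 Wnt receptors 2 fell, of which Lgr4, a receptor of R-spondins, kept its call in every alternative (log2 -0.37 ± 0.05). The second fall was lost without Dox 2, Dox 3 or IAA 1. Notch3 was the sole gene of 17 Notch pathway genes past the threshold (log2 -0.45 ± 0.05).

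Targets of the aryl hydrocarbon receptor (AhR), a factor that senses aromatic compounds and induces enzymes that oxidise them, were also among the rises. Of 8 measured genes of this list 3 rose and none fell, in every alternative, the median log2 change was 0.34, and the summed level was 2674 to 2857 with Dox and 3585 to 3688 with IAA. Nqo1 (chromosome 8, 107388225 to 107403206), a quinone reductase gene, went from 421, 451 and 488 to 845, 775 and 951 (log2 0.91 ± 0.07, adjusted p 1.90e-09). Tiparp (chromosome 3, 65528410 to 65555518), a poly-ADP-ribose polymerase gene, went from 655, 684 and 749 to 1013, 1139 and 1031 (log2 0.61 ± 0.06). Cyp1b1, a cytochrome P450 gene, went from 7.12, 5.32 and 8.49 to 25.8, 26.1 and 19.11 (log2 1.64 ± 0.34, adjusted p 0.0016). In all 3 the lowest IAA library was above the highest Dox library. Cyp1a1, another cytochrome P450 gene of the list, did not pass (log2 0.77 ± 0.38, adjusted p 0.218), nor did Ahrr, the repressor of the receptor (-0.28 ± 0.20). IAA was present in every treated library and in no control library, so the loss of BRD2 and the compound itself cannot be told apart here.

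The core letters bound by this receptor, GCGTG, were searched in the same RefSeq promoters, a search added after seeing the data. They stood in 37.9% of all promoters, in 43.3% of those of tested genes, in 54.1% of those of genes that rose (362 of 669), in 42% of those that fell and in 31.7% of those that fell at least 2-fold. Median GC content of the same promoters was 62% for rises, 59.6% for falls and for all tested, and 57.6% for falls of at least 2-fold. Of the 6 promoters found for the AhR list, 5 held the letters, those of Ahrr, Arnt, Cyp1a1, Cyp1b1 and Tiparp. Shown are the riser Cyp1b1 (chr17:79715062-79715311, minus strand), Cyp1a1, which did not pass the threshold (chr9:57697363-57697612, plus strand), and the riser Nqo1 (chr8:107403207-107403455, minus strand), to set promoters with and without the letters side by side. Capitals mark GCGTG, or CACGC where it lies on the other strand. The RefSeq start of Cyp1a1 lies 9685 bases from the first base of the gene in GENCODE.
Cyp1b1: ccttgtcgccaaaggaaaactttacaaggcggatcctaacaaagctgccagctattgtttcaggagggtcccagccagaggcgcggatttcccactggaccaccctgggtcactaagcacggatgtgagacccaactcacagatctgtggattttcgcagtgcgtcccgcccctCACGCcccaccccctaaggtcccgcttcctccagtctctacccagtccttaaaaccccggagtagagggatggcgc
Cyp1a1: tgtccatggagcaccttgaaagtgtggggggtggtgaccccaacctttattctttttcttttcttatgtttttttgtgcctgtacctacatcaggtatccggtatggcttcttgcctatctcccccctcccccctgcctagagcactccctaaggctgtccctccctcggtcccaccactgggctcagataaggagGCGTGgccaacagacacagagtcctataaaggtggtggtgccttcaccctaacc
Nqo1: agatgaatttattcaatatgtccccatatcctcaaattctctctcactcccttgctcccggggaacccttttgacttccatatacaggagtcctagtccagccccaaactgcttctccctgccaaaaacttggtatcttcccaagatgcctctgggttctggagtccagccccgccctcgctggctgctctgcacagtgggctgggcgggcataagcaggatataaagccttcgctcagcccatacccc
The letters are thus present in a promoter whose gene did not pass and absent from the window of Nqo1, which rose.

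Some genes of glycolysis and the response to low oxygen rose. Of 26 listed genes, 12 rose and none fell, with a median log2 change of 0.16. Gpi1, the glycolytic isomerase gene, went from 7803, 7379 and 7311 to 10718, 11857 and 9019 (log2 0.48 ± 0.05, adjusted p 7.14e-07). Pfkl, which encodes a phosphofructokinase subunit, rose by log2 0.32 ± 0.06 and Pkm, a pyruvate kinase gene, by 0.17 ± 0.03. These 3 genes kept the call in every alternative. The list's count was less steady, at 6 rises without Dox 2, 7 without Dox 3 and 6 without IAA 1, and 7 rises with 2 falls without IAA 2. The summed level was 117173 to 126156 with Dox and 123260.0 to 150033 with IAA, so the groups overlapped.

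**Figure D4:**
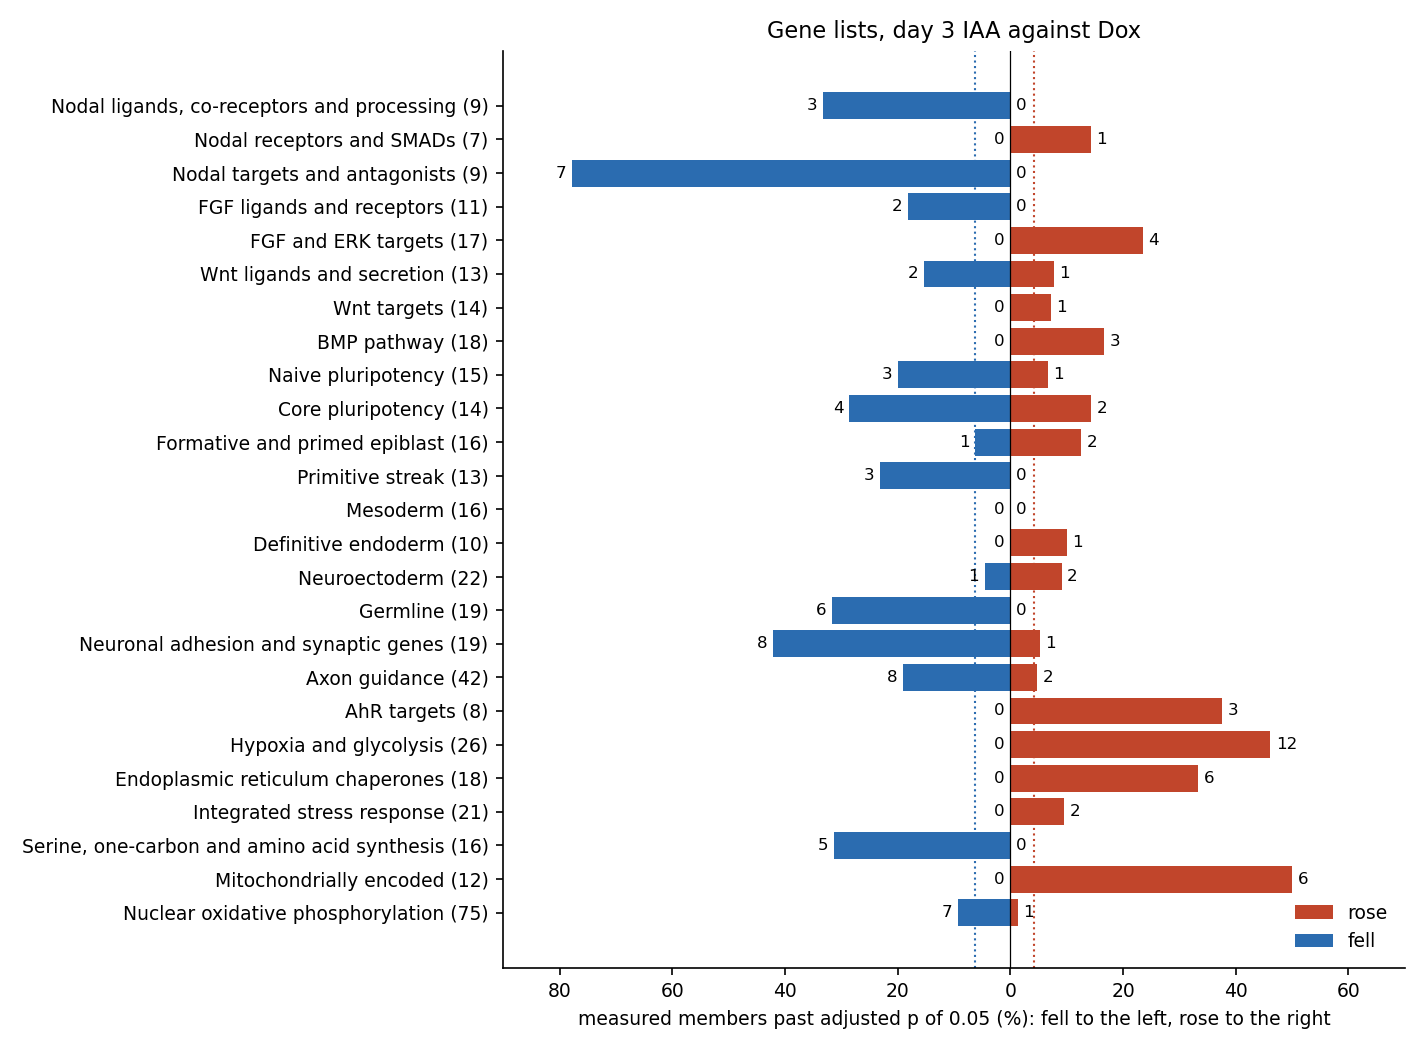
Share of measured genes of each list (number in brackets) that rose (red, to the right) or fell (blue, to the left) with IAA at day 3, with the number of genes beside each bar and dotted lines at the shares of all genes tested, 4.22% and 6.32%. Lists with falls and no rise include the Nodal targets (7 of 9) and germline genes (6 of 19), and lists with rises and no fall include hypoxia and glycolysis (12 of 26) and endoplasmic reticulum chaperones (6 of 18).

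Of 18 chaperones of the endoplasmic reticulum, 6 rose and none fell (median 0.13), with 3 rises left without Dox 2. Calr (0.23 ± 0.03), Hspa5 (0.20 ± 0.04) and Hsp90b1 (0.16 ± 0.03), abundant folding factors of that compartment, kept the call in every alternative. Of 12 measured mitochondrially encoded genes 6 rose and none fell (median 0.14), with 2 left without Dox 2. They include ND1 (log2 0.14 ± 0.03) and ND6 (0.17 ± 0.04), subunits of respiratory complex I, and the share of all such reads was higher in every IAA library, as given above. Of 75 nuclear genes of oxidative phosphorylation 1 rose and 7 fell (median -0.03), among them Atp5e (-0.43 ± 0.07) and Ndufs4 (-0.30 ± 0.06). Of 77 mitochondrial ribosomal protein genes none rose and 6 fell, of which Mrpl54 (-0.56 ± 0.10), Mrpl27 and Mrpl48 kept the call in every alternative. The other 3 were lost with DESeq2 and without Dox 1, Dox 2, Dox 3, IAA 1 or IAA 2. Of all genes tested 6.32% fell, which is near the shares in both of these lists, so their falls are no result about the lists. Of 84 cytosolic ribosomal protein genes 10 rose and 6 fell. The rises numbered 5 without Dox 2 or IAA 1 and 23 without IAA 3, and the falls 2 without Dox 2 and 3 without Dox 3. Without IAA 3 there were 3 rises among the nuclear oxidative phosphorylation genes.

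The integrated stress response, by which cells under amino acid shortage or protein stress slow translation and induce the factor ATF4, had few genes past the threshold at day 3. Of 21 listed genes 2 rose and none fell, with a median log2 change of 0.03. Atf5, which encodes a factor related to ATF4, went from 619, 715 and 658 to 1246, 914 and 1305 (log2 0.78 ± 0.09, adjusted p 4.22e-07), and it kept the call in every alternative. The other, Trib3 (0.29 ± 0.08), lost it with DESeq2, in the joint fit and without Dox 3 or IAA 1. Atf4 was at 2705, 2706 and 2764 with Dox and 2997, 2581 and 2955 with IAA, and Asns, an asparagine synthetase gene, at 3421, 3219 and 3184 and 3639.9, 3372 and 3361, and the groups overlapped in both. The ATF4 composite motif, here TGATGNAA, stood in 2.49% of all promoters and in 6 of 20 of this list (30%), those of Asns, Atf3, Chac1, Fgf21, Nupr1 and Slc7a11, and none of these 6 genes passed the threshold. In the test of the day 3 effect against the mean effect at the other stages, 9 of the 21 genes were lower at day 3 and none higher, with a median difference of -0.40. Over all genes that test called 1.83% lower and 1.46% higher. The mean of the other stages includes large rises in mES cells and EBd2. Atf5 changed by log2 1.79 in mES cells, 2.12 in EBd2, 0.78 at day 3 and 0.54 in EBd4. Trib3, whose difference did not pass, changed by 0.95, 0.93, 0.29 and 0.43. In both genes the day 3 change was nearer to that in EBd4 than to those in mES cells and EBd2.

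Amino acid transporters gave 1 rise and 3 falls in 16 genes. Slc38a2 rose by log2 0.18 ± 0.04, while Slc38a1 (-0.30 ± 0.05) and Slc38a4 (-0.37 ± 0.06), carriers of neutral amino acids of the same family, fell. Of 16 genes of serine, one-carbon and amino acid synthesis 5 fell and none rose, and of these Mthfd1l, a mitochondrial folate enzyme gene, kept the call in every alternative (log2 -0.23 ± 0.05). That count was 3 without Dox 1, 1 without Dox 2, 2 without IAA 1 and 3 without IAA 2.

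Markers of pluripotency and the epiblast moved in both directions, and their counts are read against the 4.22% of all genes tested that rose and the 6.32% that fell. Among 15 naive pluripotency genes 1 rose and 3 fell, and Dppa3, which protects maternal methylation and marks germ cells, was the fall kept in every alternative (log2 -0.77 ± 0.17). Esrrb (0.04 ± 0.14), Zfp42 (-0.02 ± 0.07) and Tfcp2l1 (0.07 ± 0.11), defining naive factors, did not pass. The rise, Klf2 (0.25 ± 0.08), was lost with DESeq2, in the joint fit and without Dox 2, Dox 3, IAA 1 or IAA 2, and DESeq2 called 1 fall. Among 14 core pluripotency genes 2 rose and 4 fell, with 1 rise left without Dox 1 and 7 falls without IAA 3. Lin28b, a translational regulator that blocks let-7 maturation, fell (log2 -0.26 ± 0.05) and Trim28, a silencing co-repressor, rose by 0.19 ± 0.03. Among 16 formative and primed epiblast genes 2 rose and 1 fell. Tcf15, a factor of cells leaving pluripotency, rose by 0.51 ± 0.10 and Dnmt3a, a DNA methyltransferase, fell (-0.24 ± 0.03), while Otx2 (-0.04 ± 0.06) and Fgf5 (-0.10 ± 0.06) did not pass. The remaining rise was lost without Dox 2, and there were 2 falls without IAA 3.

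Several germline genes fell. Of 19 listed genes 6 fell and none rose, with a median log2 change of -0.35 and a summed level of 3674 to 3880.1 with Dox and 2959 to 3119.9 with IAA, which do not overlap. Ddx4, an RNA helicase gene of germ cells, went from 378, 417 and 385 to 227, 204 and 262 (log2 -0.77 ± 0.09, adjusted p 1.27e-06). Tdrd12 (-0.58 ± 0.08) and Piwil2 (-0.72 ± 0.15), which act in silencing of transposons by small RNAs, fell too, and with Dppa3 these calls held in every alternative. Fibroblast and vessel markers were low and mostly past no threshold. Dcn fell (log2 -1.48 ± 0.30) and Tek as given above, and the summed levels of these lists were 329 to 409.6 and 473 to 504 with Dox and 271 to 381 and 385 to 435 with IAA. Of the trophoblast, definitive endoderm and epithelial lists, Peg10 (0.27 ± 0.05) and Cldn6 (0.28 ± 0.05) rose and Esrp1 fell. Esrp1 did not keep its call in every alternative.

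Genes of the transcription machinery mostly did not pass the threshold. Hexim1, which encodes the inhibitor that holds the elongation factor P-TEFb in an inactive complex, went from 493, 566 and 541 to 836, 780.3 and 922 (log2 0.66 ± 0.07, adjusted p 1.85e-07). The lowest IAA value was above the highest Dox value. Larp7, whose protein protects the RNA component of that complex, fell (log2 -0.40 ± 0.05), as did Aff1, a scaffold of the super elongation complex that brings P-TEFb to genes (-0.34 ± 0.07). With Mllt3, whose call was not kept in every alternative, these 4 were the genes past the threshold of 16 in this group. Polr2a, the largest subunit of RNA polymerase II, rose by 0.23 ± 0.04, Taf7, a subunit of the initiation factor TFIID, by 0.23 ± 0.05 and Med15, a Mediator subunit, by 0.28 ± 0.06. In all, 2 of 12 polymerase subunits rose and none fell, 5 of 32 initiation factors rose and 1 fell, and 3 of 32 Mediator subunits rose and 3 fell. Over all genes tested 4.22% rose and 6.32% fell. Polr2a, Taf7 and Med15 were the members of these 3 lists kept in every alternative. The polymerase list had 1 rise without Dox 1, Dox 2, Dox 3, IAA 1 or IAA 3, and the initiation list 1 without Dox 1 or Dox 2 and 3 without Dox 3 or IAA 1. The fall in the initiation list was lost without Dox 1, Dox 3, IAA 1 or IAA 2. The Mediator list had 1 rise without Dox 1 or IAA 1, and 1 fall or none without any library but IAA 3.

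None of 17 immediate early genes or 12 genes of the MYC family passed, but 5 immediate early genes fell without IAA 3. Of 22 p53 targets 1 rose and 3 fell (6 without IAA 3). The rise, Rrm2b, was lost with DESeq2 and without Dox 1, Dox 2, IAA 2 or IAA 3, while Bbc3, a pro-apoptotic gene, kept its fall in every alternative (log2 -0.44 ± 0.09). BMP pathway genes gave 3 rises in 18 genes, of which none was kept in every alternative, with no rise left without Dox 1, Dox 2 or Dox 3 and 1 without IAA 1 or IAA 2. The p53 and BMP counts are read against the 4.22% of all genes tested that rose and the 6.32% that fell.

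The effect of IAA at day 3 was then compared with the mean of its effects in mES cells, EBd2 and EBd4, in a fit of all 24 libraries. Of 22019 genes tested, the day 3 effect was higher in 322 (1.46%) and lower in 403 (1.83%). Without Dox 1 of day 3 these counts were 201 and 236, and without IAA 1 of day 3 there were 206 higher. With mES cells left out of the contrast, an alternative added after seeing the data, 139 were higher and 336 lower. Stages differ in medium and day of culture as well as in cell type, and these cannot be told apart.

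Long genes again stood out. Of the 192 genes over 300 kb, 68 (35.4%) were lower at day 3 than at the other stages and 1 higher. Their median log2 change with IAA was -0.53 at day 3, -0.15 in mES cells, -0.10 in EBd2 and -0.25 in EBd4. Relative to each gene's mean over the 24 libraries, the class stood at -0.05 with Dox and -0.18 with IAA in mES cells, at 0.14 and 0.04 in EBd2, at 0.21 and -0.29 in EBd3 and at 0.29 and 0.08 in EBd4. The IAA group of day 3 was thus the lowest of the 8 groups, while the Dox group of day 3 lay between those of day 2 and day 4.

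Zbtb20 is an example. Its log2 change was -2.03 at day 3, against -0.36 in mES cells, -1.02 in EBd2 and -0.22 in EBd4 (difference -1.50 ± 0.19, adjusted p 5.26e-06). At day 4 its values were 146, 125 and 184 with Dox and 116, 157 and 116 with IAA, and the groups overlapped there. Immp2l, a mitochondrial peptidase gene of 931499 bases, was at 32.1, 35.1 and 24.4 with Dox and 7.74, 6.21 and 9.55 with IAA at day 3 (difference -1.37 ± 0.26, adjusted p 0.00143). Both remained past the threshold without mES cells (-1.41 and -1.28). Of the genes named above, Ptprk (-0.65 ± 0.07, adjusted p 1.30e-07), Exoc4 (-0.46 ± 0.09), Grip1 (-1.09 ± 0.20) and Robo1 (-0.45 ± 0.10) also had a lower effect at day 3. For Nrcam (-0.60 ± 0.40) and Gpc6 (-0.70 ± 0.34) the difference did not pass.

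In the Nodal pathway, Gdf3 (difference -0.57 ± 0.12, adjusted p 0.00569) fell more at day 3 than on average at the other stages, although its fall in EBd2 was no smaller. Its log2 changes in mES cells, EBd2 and EBd4 were -0.27, -1.55 and -0.65. For Lefty1 (-0.11 ± 0.10), Lefty2 (0.03 ± 0.11), Nodal (-0.27 ± 0.11) and Tdgf1 (-0.08 ± 0.12) the difference did not pass.

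Other genes had a higher effect at day 3 than on average at the other stages. Porcn fell in mES cells from 147, 148 and 152 to 10.7, 10.6 and 12.04, and its log2 changes were -3.63 there, 0.20 in EBd2, 0.65 at day 3 and -0.47 in EBd4 (difference 1.95 ± 0.14, adjusted p 1.07e-10). Trh, the gene of thyrotropin-releasing hormone, was at 3238, 2430.1 and 2953 with Dox and 3068, 3388 and 2811 with IAA at day 3, which overlap, while at day 4 it went from 11089.9, 11074 and 9884 to 4144, 5582 and 6630.2 (difference 1.51 ± 0.13, adjusted p 3.87e-09). Both remained past the threshold without mES cells (0.78 and 0.98). Dusp4 (0.60 ± 0.14, adjusted p 0.00979) and Cd24a (0.42 ± 0.07) had a higher effect at day 3 than that average. Dusp4 changed by log2 0.18 in mES cells, 0.49 in EBd2, 1.13 at day 3 and 0.91 in EBd4, so its rise in EBd4 was near that of day 3. The rise of Cd24a was nonetheless larger in EBd2 (log2 1.04) than at day 3, and its values in mES cells and EBd4 were -0.17 and 0.03. Atf5 (-0.70 ± 0.11), Ddx4 (-0.50 ± 0.11) and Brd2 itself (-0.28 ± 0.06, adjusted p 0.00297) had a lower one, while Hexim1 (-0.08 ± 0.07) and Nqo1 (0.17 ± 0.11) did not differ past the threshold. Atf5 nonetheless rose less in EBd4 (log2 0.54) than at day 3 (0.78). Brd2 rose by log2 0.87 in mES cells, 0.65 in EBd2, 0.38 at day 3 and 0.48 in EBd4. Its day 3 rise was thus nearer to that in EBd4 than to those in mES cells and EBd2.

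**Figure D5:**
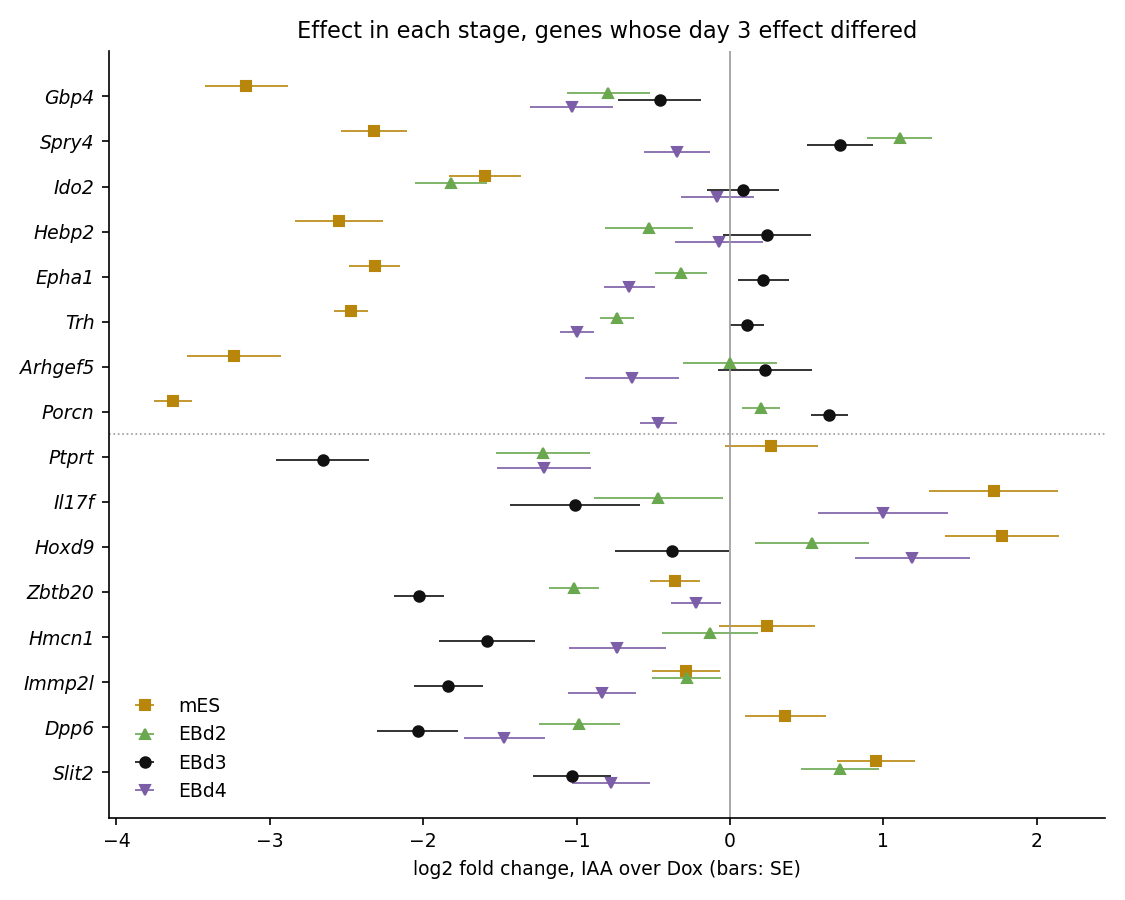
Log2 fold change of IAA over Dox at each of the 4 stages (symbols, with bars of ± SE) for the 16 genes whose day 3 effect differed most from the mean of the other stages, higher above the dotted line and lower below it. Zbtb20 and Immp2l lie lowest at day 3, and Porcn and Trh lie lowest in mES cells and highest at day 3.

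The last comparison set the day 3 effect beside the course of control cells, taken from Dox cells at day 4 against day 2, which share no library with day 3. Of 22168 genes, 2405 (10.8%) rose at least 2-fold over that time and 3389 (15.3%) fell. Of the rising genes measured at day 3 (2322), 105 rose with IAA and 218 fell, which is 9.39%. Of the falling ones (2965), 65 rose and 222 fell (7.49%), and of the other 15370 genes 729 rose and 906 fell (5.89%). With genes of 100 kb or more left out, the shares that fell were 4.71%, 5.59% and 3.42%. With a minimum mean of 50 in place of 1, the shares that fell were 13.0% of 1115 rising, 17.3% of 707 falling and 8.41% of 9181 other genes, and 7.52%, 14.3% and 5.21% with long genes left out. Both moving classes thus had a higher share of falls than the other genes at either minimum, but which of them had the higher share changed with the minimum and with the removal of long genes. No test was made of these shares.

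Single genes took different places on that course. Gdf3 fell in control cells from 1649 ± 104 at day 2 to 673 ± 39.4 at day 3 and 287 ± 17.9 at day 4 (mean ± SD, n = 3), and its day 3 value with IAA, 256 ± 28.4, was near the day 4 control. Lefty1 was highest at day 3 in control EB (1625 ± 55.8, 2939.8 ± 295 and 2299 ± 277) and stood at 1033 ± 107 with IAA. Nodal was lowest at day 3 (1378 ± 153, 512 ± 23.2 and 1122 ± 114), and IAA took it lower still, to 299 ± 8.92. Nqo1 fell steadily in control cells (1054 ± 139, 454 ± 33.4 and 143 ± 10.9), and with IAA its day 3 value was 857 ± 88.5. Gdf3, Lefty1 and Nodal thus lay below the day 3 control with IAA although their courses in control cells differed.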

How the data were processed

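Total RNA of the 6 day 3 libraries, and of 18 libraries of the other stages, was sequenced. The submitters' processing notes name STAR 2.5.3a, featureCounts 1.5.2, DESeq2 (with no version) and the build mm10. Whether counting used strand, and which annotation, are not given in the sources used here, so genes that overlap on opposite strands may share reads. The authors deposited 1 table per stage, with signal values per library that they had made by dividing read counts by a size factor. Whole reads could be recovered for 100% of the positive values (within 1e-06). The log2 fold changes and adjusted p-values that the authors deposited were used for comparison alone, and come from DESeq2 per the file headers.

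The values are not raw counts, so limma (3.58.1, with trend) in R 4.3.3 was run on log2 values after adding 1. Genes needed a mean of 1 or more, and p-values were adjusted by Benjamini and Hochberg's method, with 0.05 as the threshold. The 6 day 3 libraries were fitted alone. All 24 were fitted for the difference between stages, and the Dox libraries of day 2 and day 4 alone for day 4 against day 2. Replicate numbers were not used as pairs. Alternatives were a pseudocount of 0.5, no filter or a minimum of 10, TMM scaling, edgeR 4.0.16 and DESeq2 1.42.0 on the recovered reads, a replicate block, a joint fit and each library left out. The scripts were tested on simulated data.

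Members and gene lists were chosen with earlier results of these data known. The rule for named genes took, from those past the threshold, the 12 largest changes each way where groups did not overlap and the higher group had a mean of 50 or more, the 6 each way with the highest level among such changes of at least 1.5-fold, up to 4 per list with the smallest adjusted p, the BET family, and 8 each way for the difference between stages with a mean of at least 50 in the highest group. It passed over Gm and Rik genes, pseudogenes and unnamed IDs, and other list members are named with their values. Some genes that the rule takes are not reported here. Of the 35742 genes, 14339 have no symbol and 35652 were found in GENCODE M21, which gave positions, spans and exonic lengths. Promoters are from RefSeq.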

Additional observations from a re-analysis of the deposited data

Results flagged for a closer look

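In 16 genes the log2 change with IAA at day 3 differed from the mean of its changes in mES cells, EBd2 and EBd4 by a test of that difference itself (limma, adjusted p below 0.05), and these genes had the largest such differences each way. The 8 with a lower effect at day 3 were Ptprt (difference -1.93), Il17f (-1.76), Hoxd9 (-1.54), Zbtb20 (-1.50), Hmcn1 (-1.38), Immp2l (-1.37), Dpp6 (-1.34) and Slit2 (-1.33). Of these, Ptprt, Zbtb20, Hmcn1, Immp2l, Dpp6 and Slit2 span over 300 kb. Il17f and Hoxd9 had low counts at day 3, with means of 6.31 and 5.88 with Dox and 2.90 and 4.45 with IAA. Their day 3 changes were log2 -1.01 ± 0.42 and -0.38 ± 0.37. In mES cells they changed by log2 1.72 and 1.77, and in EBd4 by 1.00 and 1.19. Those higher values enter the mean of the other stages, so the differences of Il17f and Hoxd9 do not stand for day 3 falls of that size. Ptprt, a receptor phosphatase gene of 1139158 bases, was at 0 in all 3 Dox libraries of mES cells, at 45.1, 36.2 and 31.8 with Dox at day 3 and at 6.45, 6.21 and 3.18 with IAA. Slit2, a guidance cue gene, changed by log2 0.95 in mES cells, 0.72 in EBd2, -1.03 at day 3 and -0.78 in EBd4. Its day 3 values were 40.4, 41.5 and 37.1 with Dox and 16.8, 9.94 and 39.3 with IAA, and the groups overlapped.

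The 8 with a higher effect at day 3 were Porcn (1.95), Arhgef5 (1.52), Trh (1.51), Epha1 (1.31), Hebp2 (1.29), Ido2 (1.25), Spry4 (1.24) and Gbp4 (1.2). All 8 fell in mES cells, by log2 -3.63, -3.23, -2.47, -2.32, -2.55, -1.60, -2.32 and -3.15 in that order, where this fall enters the mean of the other stages. With mES cells left out, an alternative chosen after seeing the data, Ptprt (-1.44), Zbtb20 (-1.41), Immp2l (-1.28), Porcn (0.78) and Trh (0.98) stayed past the threshold. The other 11 did not, the nearest being Ido2 (adjusted p 0.0516) and Epha1 (adjusted p 0.0619). The call on Ptprt was lost with edgeR on the recovered reads (adjusted p 0.112), that on Dpp6 without Dox 1 of day 3 (adjusted p 0.0545) and that on Slit2 without IAA 2 of day 3 (adjusted p 0.0523). Calls on Il17f, Hoxd9, Hmcn1, Hebp2 and Gbp4 were each lost in several alternatives.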

How the results depend on the processing

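The counts of 899 rises and 1346 falls at day 3 were 549 and 734 with DESeq2 on the recovered reads. The 26 rises and 264 falls that reached 2-fold were 6 and 104 there. Rises of at least 2-fold numbered 14 with a minimum mean of 10 and 74 in the joint fit of 24 libraries. Leaving out each day 3 library in turn gave 440 to 1086 rises, 761 to 1527 falls, 8 to 39 rises of at least 2-fold and 146 to 354 falls of at least 2-fold. For the difference from the other stages (322 higher, 403 lower) leaving out each library gave 201 to 384 and 236 to 482, and leaving mES cells out gave 139 higher. For Dox day 4 against day 2 it gave 2174 to 2445 rises and 2881 to 3392 falls of at least 2-fold, and a minimum mean of 10 gave 1759 falls in place of 3389. The cause was not tested, except that the stricter minimum leaves fewer genes to test. edgeR on the recovered reads made 2301 calls, of which 2177 were shared with the 2245 of limma, and all 1283 calls of DESeq2 were shared. Of 148 named genes past the threshold, 91 were past it in every alternative that gave an adjusted p, 19 lost it only with a library left out, 38 in another alternative, and 0 reversed. Among the 19, Acta2 had no adjusted p from DESeq2. Low counts limit the precision of genes near a mean of 1.

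Replicate numbers gave no sign of pairing the groups: deviations of same-numbered Dox and IAA libraries at day 3 correlated at 0.017, -0.101 and 0.159 over 11003 genes. With the replicate block the day 3 counts were 973 rises and 1429 falls (32 and 282 of at least 2-fold), the difference from the other stages 310 and 383, and Dox day 4 against day 2 2398 and 3405.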

Other observations

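Further lists had few genes past the threshold at day 3. Of 38 measured proteasome subunits 3 rose and 2 fell, with 1 rise left without Dox 1, Dox 2, IAA 1 or IAA 2. Over all genes tested 4.22% rose and 6.32% fell, so these counts are no result about the proteasome list. The kept members were Psmd2, a subunit of the regulatory cap (log2 0.18 ± 0.04), and Psmb10. Psmb8, another immunoproteasome subunit, was at 127, 96.9 and 80.7 with Dox and 68.4, 64.6 and 57.3 with IAA (log2 -0.65 ± 0.16, adjusted p 0.00909). Its call was lost without Dox 1 and in the joint fit of all 24 libraries (adjusted p 0.27). Of 12 genes of the 2-cell-like state 1 fell, with a median log2 change of -0.42 against -0.01 over all genes. Their summed level was 514 to 590.0 with Dox and 334 to 534 with IAA, ranges that overlap. The fall was that of Zscan4a, of a cluster of near-identical genes that may share reads, and it was lost with DESeq2, in the joint fit and without Dox 1, Dox 2, Dox 3, IAA 1 or IAA 2. The count for the list ranged from none (DESeq2, the joint fit, without Dox 2, Dox 3 or IAA 1) to 3 with edgeR.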
